A study of Homo sapiens with 8 samples.

Results

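The genes described here were 33 genes of cholesterol and fatty acid synthesis, chosen by name, out of 16169 gene names in the 2 count tables of the series. They comprised 18 enzymes of the sterol pathway, 6 genes that regulate the sterol response or carry sterol, and 9 genes of fatty acid synthesis. Both tables held all 33 genes, and all 33 passed the filter on low counts in each. Hep3B, a human hepatocellular carcinoma line, was profiled by RNA-seq in 8 libraries, 2 for each of 4 conditions. The knockout table held Hep3B of WT genotype and Hep3B SOX4-/-, and the siRNA table held Hep3B of WT genotype transfected with control si, called scramble in the study, and Hep3B transfected with STAT6 si. SOX4 and STAT6 encode transcription factors. All cells were grown in MEM with fetal bovine serum, and neither a time after transfection nor a sterol-depleted medium was given in the labels. The SOX4-/- cells were CRISPR/Cas9 lines kept under puromycin, which the study's methods do not mention for the other cells. The study's RNA-seq methods list the knockout data as those of 2 lines, #1 and #2, and the labels do not say which library came from which line. If each knockout library came from its own line, their spread includes that between lines. For the other groups no source used here says that the libraries came from separate cultures. The p-values measure the spread between these libraries, which in those groups may be technical.

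Cells build cholesterol from acetyl-CoA through mevalonate, farnesyl diphosphate, squalene and lanosterol, and build fatty acids from malonyl-CoA. Transcription of both sets is raised by SREBP-1 and SREBP-2, the products of SREBF1 and SREBF2, which are membrane proteins carried by SCAP from the endoplasmic reticulum to the Golgi for cleavage when sterol is scarce. INSIG1 and INSIG2 hold SCAP back when sterol is plentiful. Liver cells are a main site of both pathways, and SREBP proteins are controlled largely by cleavage, which RNA levels do not measure.

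The promoter sequences are shown because the genes are textbook targets of one pair of transcription factors, which bind a sterol regulatory element and work with factors on CCAAT and GC boxes. RefSeq promoters (GRCh38.p14, 250 bases before to 50 bases after the start) were held for 29 of the 33 genes. ACAT2, FDFT1, SQLE and FASN had no entry. On either strand, CCAAT was present in 12 of 15 promoters of the sterol enzymes (80.0%), in 3 of 6 of the regulators and in 3 of 8 of the fatty acid genes. It was present in 35.7% of 27305 promoters and in 36.4% of the promoters of genes tested in the knockout table. GGGCGG, a GC box, was present in 27 of 29 (93.1%), against 44.6% of all promoters and 68.9% of those of tested genes. The element TCACNCCAC was present in 1 of 29, that of SREBF2, and in 1.15% of all promoters. Only this form was searched for, within this window, so the lack of a match does not show that a gene lacks the element. CACGTG, an E-box, was present in 4 of 29 (13.8%), against 7.43% of all promoters and 10.1% of those of tested genes. These motifs do not overlap one another in their letters except where neighbouring copies meet, and a match describes the letters alone. Below are 29 bases of the gene's own strand around the element of SREBF2 and around the CCAAT box nearest the start in the 3 genes that passed the test in the knockout comparison, with the motif in capitals. ATTGG is CCAAT read on the other strand.
SREBF2: gatgacgcgccaTCACCCCACgcaccgct
LSS: cgcggcgctctgATTGGttgcgtgggcgt
TM7SF2: ccccgagcgccgATTGGctggtgtgctgg
ACSS2: gccctccttgggATTGGgcagactctcgg
The motifs began 133 bases before the start in SREBF2 (chr22:41832960-41832988, plus strand), 150 in LSS (chr21:46228908-46228936, minus strand), 74 in TM7SF2 (chr11:65111786-65111814, plus strand) and 123 in ACSS2 (chr20:34874854-34874882, plus strand). The ACSS2 window lies at a transcript that begins at chr20:34874963 and held 2.10% to 4.14% of the gene's counts in the knockout table. The transcript with most of its counts begins downstream, at chr20:34876525, so the window is not from the promoter of that transcript. IDI1, PMVK and CYP51A1 were the sterol enzymes whose promoters held no CCAAT.

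Values per library are CPM, counts scaled to library size, after TMM scaling within a table, so levels in different tables stand side by side without a test. The 33 genes took 0.958% of the expected counts in Hep3B library 1, 2.02% in Hep3B library 2, 1.42% and 1.81% in libraries labelled as SOX4 knockout, 0.499% and 0.700% with scramble siRNA, and 0.551% and 0.762% with STAT6 siRNA. Those shares rested on totals of 18484804 and 18123854 expected counts in Hep3B and 25353113 and 18924814 in libraries labelled as SOX4 knockout. The totals were 18096907 and 20272261 with scramble and 16266282 and 22037721 with STAT6 siRNA. The share in Hep3B library 2 was above that of both knockout libraries, and that of library 1 was below both.

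SOX4, the targeted gene, stood at 799 and 266 CPM in Hep3B and at 298 and 302 CPM in libraries labelled as SOX4 knockout, so its transcript does not check the label, and every direction below rests on it. In the same table STAT6 stood at 32.0 and 13.2 CPM in Hep3B and at 2.76 and 2.20 CPM in libraries labelled as SOX4 knockout (log2 fold change -3.18, SE 0.57, edgeR adjusted p = 0.0275). In the siRNA table STAT6 stood at 42.5 and 31.4 CPM with scramble and at 9.92 and 5.98 CPM with STAT6 siRNA, with no overlap. Its log2 fold change there was -2.22 (SE 0.72). The edgeR p-value was 0.00834 before adjustment, and STAT6 was not called after adjustment in that comparison. All 10 hepatocyte and hepatoma markers were at 1 CPM or more in all 8 libraries, with ALB the most abundant. ALB and the other 9 hepatocyte markers summed to 10141 and 9246 CPM in Hep3B and to 34852 and 17667 CPM in libraries labelled as SOX4 knockout, where APOA1, APOH and FGB passed the test as higher. Of the 10 hepatocyte markers 9 were higher without overlap. Over all genes 30.6% were higher without overlap and 4.50% were called higher. Of 6 fibroblast markers 3 were listed in the knockout table, COL1A1, LUM and PDGFRB. Their sum was 4.43 and 7.43 CPM in Hep3B and 101 and 77.5 CPM in libraries labelled as SOX4 knockout. LUM made up most of it, at 0.624 and 0.738 CPM in Hep3B against 85.5 and 54.2 CPM. PDGFRB had 2.84 and 1.27 CPM against 9.88 and 13.9 CPM, and COL1A1 0.965 and 5.43 CPM against 5.83 and 9.35 CPM. All 3 were higher without overlap, against 30.6% of all genes. LUM and PDGFRB passed the test as higher (edgeR adjusted p = 0.00384 and 0.0494), against 4.50% of all genes. Over the alternatives the highest adjusted p-value was 0.0384 for LUM, 0.288 for PDGFRB, 0.222 for APOA1, 0.12 for APOH and 0.227 for FGB, so that among these 5 calls that of LUM alone held in each. COL1A2, COL3A1 and DCN were not listed in that table. Of the endothelial markers only PECAM1 was listed in that table, below 1 CPM in each library, and of the 5 blood cell markers 2 were among the genes tested and PTPRC and CD3E were not. CD68 had 43.0 and 28.01 CPM in Hep3B and 72.9 and 92.4 CPM in libraries labelled as SOX4 knockout, and CD14 had 1.14 and 1.42 CPM against 3.41 and 4.45 CPM, both higher without overlap but not called (edgeR adjusted p = 0.0968 and 0.146). In bulk RNA a change in the number of cells of a type and a change in RNA per cell cannot be told apart. The part of these differences in the results below was not tested.

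**Figure D1:**
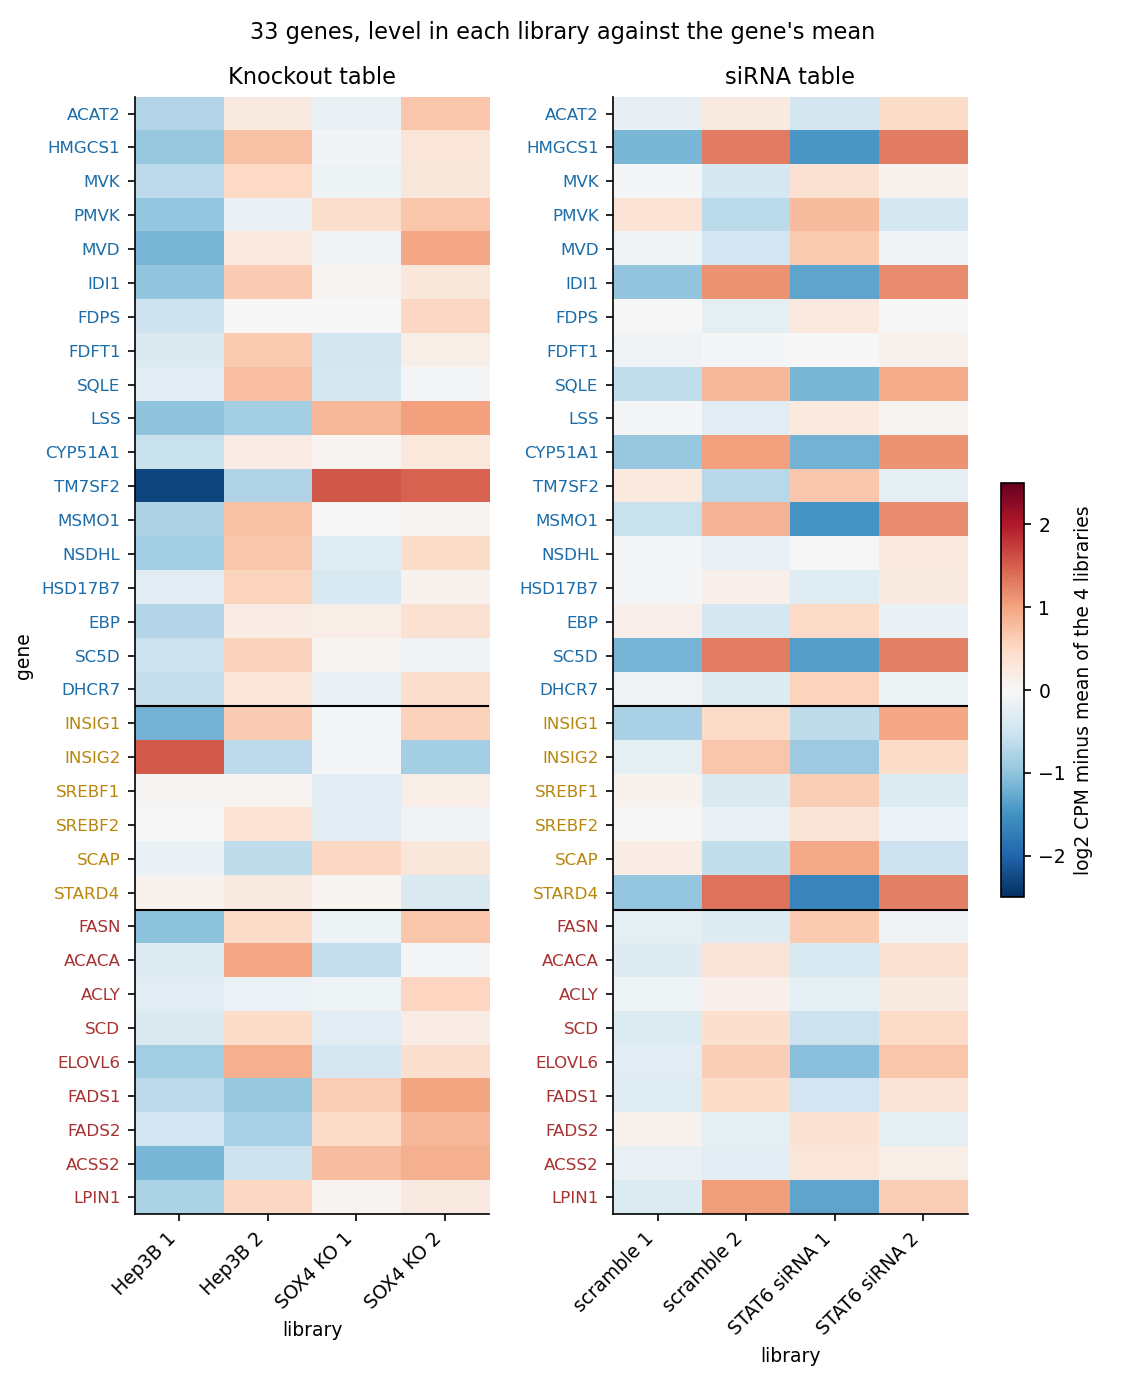
Colour gives the log2 CPM of each of the 33 genes (rows, in the order sterol pathway, SREBP regulators, fatty acid synthesis) in each library (columns) minus the mean of the 4 libraries of its table. In the knockout table all 18 sterol genes are lower in Hep3B library 1 than in library 2, and in the siRNA table a subset of genes splits libraries 1 and 2 in both groups.

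Compared per kilobase of transcript, SCD, the desaturase that makes oleate, had the highest mean level of the 33 genes in Hep3B, 597 and 1060.4 CPM per kilobase. HMGCS1, the synthase of HMG-CoA, followed at 232 and 751, and FDPS, the farnesyl diphosphate synthase, at 358 and 506. Neighbouring genes in this order overlapped in their 2 libraries, so their order is not resolved. The lowest were SCAP, at 14.6 and 10.6, and ELOVL6, a fatty acid elongase, at 4.37 and 14.9 CPM per kilobase. With scramble siRNA the highest means were those of SCD (168 and 279), FDPS (215 and 183) and FASN, the fatty acid synthase (150 and 141), and the lowest were those of STARD4 (1.05 and 5.47) and ELOVL6 (0.988 and 1.80 CPM per kilobase). SREBF2 was above SREBF1 in every library on this scale, with 109 and 137 against 45.3 and 46.8 CPM per kilobase in Hep3B, and 77.9 and 70.4 against 55.3 and 40.1 with scramble.

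The first comparison asked which of these genes differ between Hep3B and cells labelled SOX4 knockout. Of the 33 genes, 3 were called higher and 0 lower at an adjusted p-value below 0.05 (edgeR, quasi-likelihood test, adjusted over all genes by Benjamini and Hochberg). The background was 5.89% of 14415 genes called in either direction, with 4.50% higher and 1.39% lower. The 3 were LSS and TM7SF2 of the sterol pathway and ACSS2 of fatty acid synthesis. Before adjustment 6 of 33 had a p-value below 0.05, against 26.0% of all genes, and the median log2 fold change was 0.15 over the 33 genes and 0.01 over all genes. The share of these genes that passed is thus near that of the rest, and the 3 genes are described one by one.

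LSS (chr21:46188446-46228824), the lanosterol synthase that closes the sterol ring system, was at 88.1 and 98.2 CPM in Hep3B and 315 and 359 CPM in libraries labelled as SOX4 knockout. Both knockout libraries lay more than 3-fold above both Hep3B libraries. The log2 fold change was 1.85 (standard error [SE] 0.35, edgeR adjusted p = 0.0323). Of its 4 transcripts 3 were higher without overlap, the 2 most abundant going from 49.4 and 57.4 to 145 and 173 CPM and from 27.1 and 26.9 to 122 and 134 CPM.

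TM7SF2 (chr11:65111854-65116235), a sterol reductase that acts on the double bond at carbon 14 after lanosterol, had 12.8 and 37.3 CPM in Hep3B and 183 and 174 CPM in libraries labelled as SOX4 knockout. The Hep3B libraries were apart by 2.92-fold, and both were far below the knockout libraries. Its log2 fold change of 2.83 (SE 0.53, edgeR adjusted p = 0.0316) was the highest of the 33 genes. It was 2.20 without Hep3B library 1 and 3.80 without Hep3B library 2, and the gene was called in both.

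ACSS2 (chr20:34874963-34927966), the cytosolic and nuclear acetyl-CoA synthetase that makes acetyl-CoA from acetate, had 44.9 and 69.1 CPM in Hep3B and 168 and 184 CPM in libraries labelled as SOX4 knockout, again without overlap. Its log2 fold change was 1.62 (SE 0.37, edgeR adjusted p = 0.0464). One transcript held 93.5% to 96.4% of its counts in these 4 libraries.

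These 3 calls, like most calls over all genes, were lost in fits that leave out either library labelled SOX4 knockout, which leave 1 library in that group. In those fits the log2 fold changes were 1.96 and 1.72 for LSS, 2.81 and 2.83 for TM7SF2 and 1.70 and 1.52 for ACSS2. The 3 calls were also lost when offsets for GC content and length of transcripts were fitted, where 632 of 14415 genes were called. With those offsets the log2 fold changes were 1.34 for LSS, 2.17 for TM7SF2 and 1.33 for ACSS2, with adjusted p-values of 0.0665, 0.0662 and 0.0795. In the fit of all 8 libraries LSS (log2 fold change 1.79, adjusted p = 0.0597) and ACSS2 (1.56, 0.109) were also not called, and ACSS2 was not called without Hep3B library 1 (1.29, 0.0573). GC content moved with the fold change across all genes, whose median log2 fold change went from -0.27 in genes below 40% GC to 0.48 in genes of 60% or more, and LSS, TM7SF2 and ACSS2 had 59.6%, 62.0% and 54.5%.

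**Figure D2:**
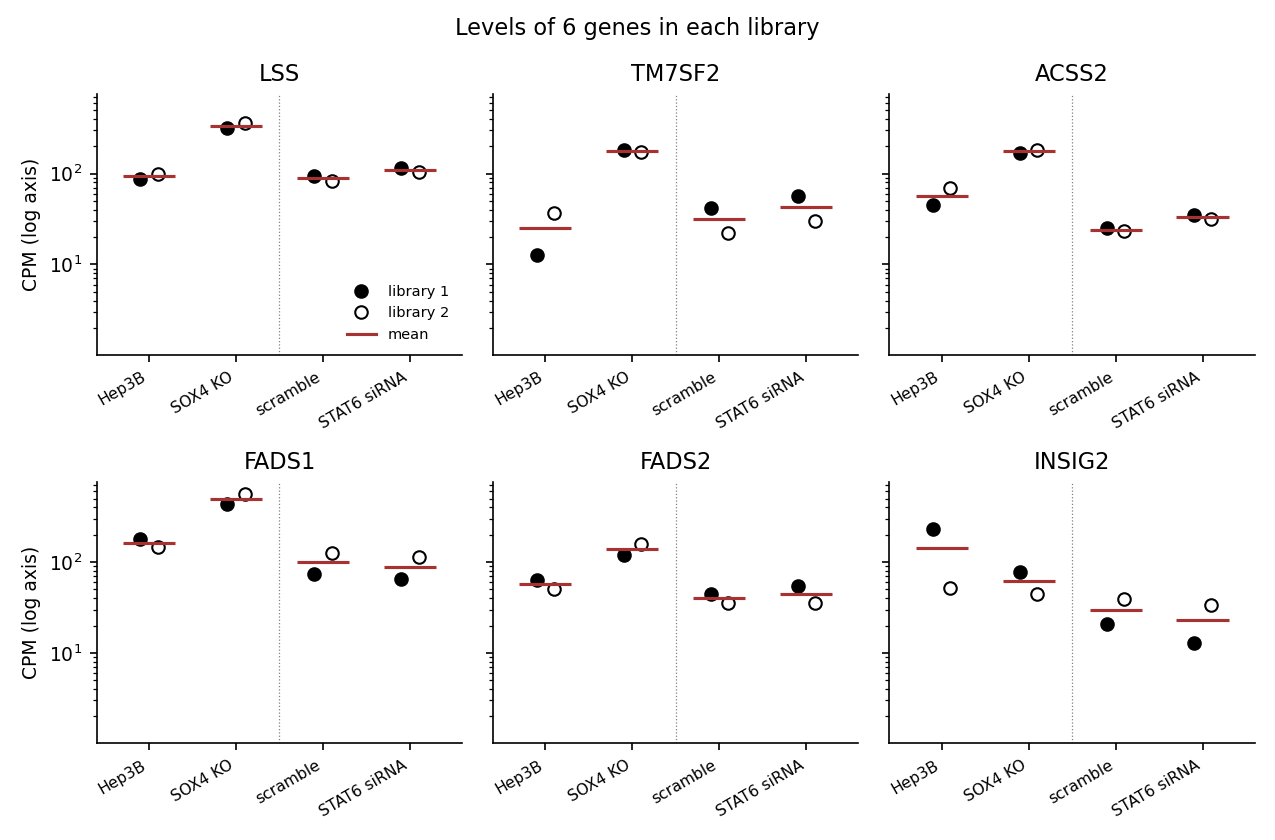
CPM (log axis) of 6 genes in each library, with library 1 filled, library 2 open and the mean of the pair as a line. LSS, TM7SF2, ACSS2, FADS1 and FADS2 are higher in both libraries labelled SOX4 knockout than in both Hep3B libraries, and INSIG2 overlaps, since Hep3B library 1 lies above both knockout libraries and Hep3B library 2 between them.

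FADS1 and FADS2, the delta-5 and delta-6 desaturases of polyunsaturated fatty acid synthesis, lie side by side on chromosome 11. FADS1 had 180 and 148 CPM in Hep3B and 436 and 564 CPM in libraries labelled as SOX4 knockout, a log2 fold change of 1.61 (SE 0.39). FADS2 had 63.8 and 50.8 CPM against 121 and 157 CPM, a log2 fold change of 1.28 (SE 0.35). In both genes the groups did not overlap, but neither passed, with edgeR adjusted p-values of 0.0525 and 0.0727. With upper-quartile factors edgeR called FADS1 (adjusted p = 0.0439). The DESeq2 Wald test, which called 9.57% of all genes as higher, called both, with adjusted p-values of 0.0018 and 0.0235. With GC and length offsets the log2 fold changes were 1.49 and 0.81 (edgeR adjusted p = 0.0622 and 0.156), and leaving out each library gave adjusted p-values from 0.0404 to 0.301 for FADS1 and from 0.0492 to 0.399 for FADS2, the lowest without Hep3B library 1.

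FADS2 by transcript is given after its values were seen and without a test, and transcript counts are estimates that divide reads shared between isoforms. The transcript with the shortest span (chr11:61828033-61867354) had 4.15 and 0.811 CPM in Hep3B and 63.4 and 64.7 CPM in libraries labelled as SOX4 knockout. The transcript with the longest span (chr11:61816203-61867354) had 41.4 and 20.0 CPM against 36.5 and 64.4 CPM, and the third had 18.2 and 29.99 CPM against 21.1 and 28.3 CPM. The shortest thus made up 6.51% and 1.60% of the gene's counts in Hep3B and 52.4% and 41.1% in libraries labelled as SOX4 knockout, with no overlap. The share of the third was 28.5% and 59.0% against 17.4% and 18.0%, also without overlap although its CPM overlapped, and the share of the longest overlapped. With scramble the shortest transcript had 0.382 and 0.00379 CPM and with STAT6 siRNA 0.503 and 0.00804 CPM. FADS1 and FADS2 share 142 exonic bases on opposite strands, and FADS2 shares 49 with FEN1 on the same strand.

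**Figure D3:**
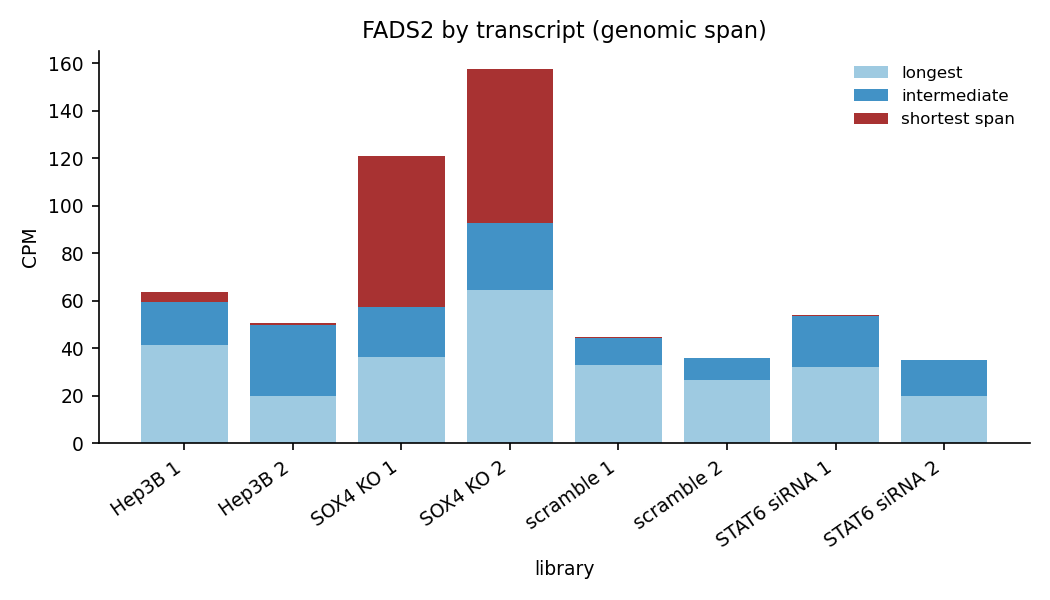
Stacked bars give the CPM of the 3 FADS2 transcripts in each library, from the longest to the shortest genomic span. The shortest transcript is at 63.4 and 64.7 CPM in libraries labelled as SOX4 knockout and at 4.15 CPM or less in the other 6 libraries.

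The other 16 sterol enzymes did not pass the test. PMVK, the phosphomevalonate kinase, had 12.3 and 21.5 CPM in Hep3B and 32.8 and 39.2 CPM in libraries labelled as SOX4 knockout, with no overlap and a log2 fold change of 1.09 (SE 0.41, edgeR adjusted p = 0.146). That value was 0.68 without Hep3B library 1, 1.55 without Hep3B library 2 and 0.53 with GC and length offsets. FDPS had 452 and 643 CPM against 655 and 929 CPM, which also did not overlap. Among all 18 sterol enzymes the groups did not overlap in 4, each higher, against 30.6% of all genes higher, 27.4% lower and 58.0% in either direction without overlap. The values of the remaining 14 overlapped between the groups. In 6 of them both knockout values lay inside the Hep3B range. One is HMGCS1, with 809 and 2621 CPM in Hep3B and 1487 and 1922 CPM in libraries labelled as SOX4 knockout. IDI1, the isopentenyl diphosphate isomerase, had 158 and 483 CPM against 326 and 383 CPM. MSMO1, which removes methyl groups from sterols, had 175 and 496 CPM against 299.7 and 309.6 CPM. The early enzyme ACAT2, a thiolase, had 152 and 295 CPM against 223 and 406 CPM, and MVK 51.4 and 114 CPM against 74.6 and 98.5 CPM. At the branch from farnesyl diphosphate to sterol, FDFT1 had 259.9 and 527 CPM against 243 and 368 CPM. SQLE, the squalene epoxidase, had 362 and 726 CPM against 320.1 and 417 CPM. Both of these had knockout libraries at or below the middle of the Hep3B range and below Hep3B library 2. After lanosterol, CYP51A1, the demethylase, had 343 and 583 CPM against 529.5 and 606 CPM. NSDHL had 53.8 and 155 CPM against 78.8 and 133 CPM, and HSD17B7, a ketoreductase, 48.9 and 87.6 CPM against 45.8 and 62.7 CPM. EBP, a sterol isomerase, had 117 and 220.4 CPM against 219 and 252 CPM. SC5D had 172 and 372 CPM against 261 and 237 CPM, and DHCR7, a sterol reductase near the end of the pathway, 226 and 418 CPM against 303 and 454 CPM. In each of these late enzymes at least 1 knockout library lay inside the Hep3B range. ACAT2 shares 397 exonic bases with TCP1 and 1106 with SOD2 on the opposite strand, and the strand setting of the counting was not given, so its counts are less certain than those of genes that stand alone, as are those of FDPS and HSD17B7, which have pseudogenes of like sequence. In 10 of the 33 genes both knockout values lay inside the Hep3B range, against 12.4% of all genes.

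The sterol genes differed between libraries of the same group. Hep3B library 2 was above library 1 in 18 of 18 sterol enzymes, against 7212 of all 14415 genes, with a median of 2.02-fold. In 10 of the 18 it was more than 2-fold above, against 24.8% of all genes whose Hep3B libraries differed by more than 2-fold in either direction. The widest sterol enzyme was HMGCS1, 3.24-fold apart, followed by IDI1 (3.05-fold), TM7SF2 (2.92-fold), NSDHL (2.89-fold) and MSMO1 (2.84-fold). In the libraries labelled SOX4 knockout, library 2 was above library 1 in 16 of the 18, against 48.3% of all genes, with a median of 1.30-fold. There 1 of 18 differed by more than 2-fold, against 14.6% of all genes. It was MVD, the mevalonate diphosphate decarboxylase, with 182 and 374 CPM. LSS was the least spread in Hep3B, at 1.11-fold. Each Hep3B library therefore gave its own direction for the list. The median log2 fold change of the 18 genes was 0.19 with both Hep3B libraries, -0.33 without library 1 and 0.89 without library 2.

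**Figure D4:**
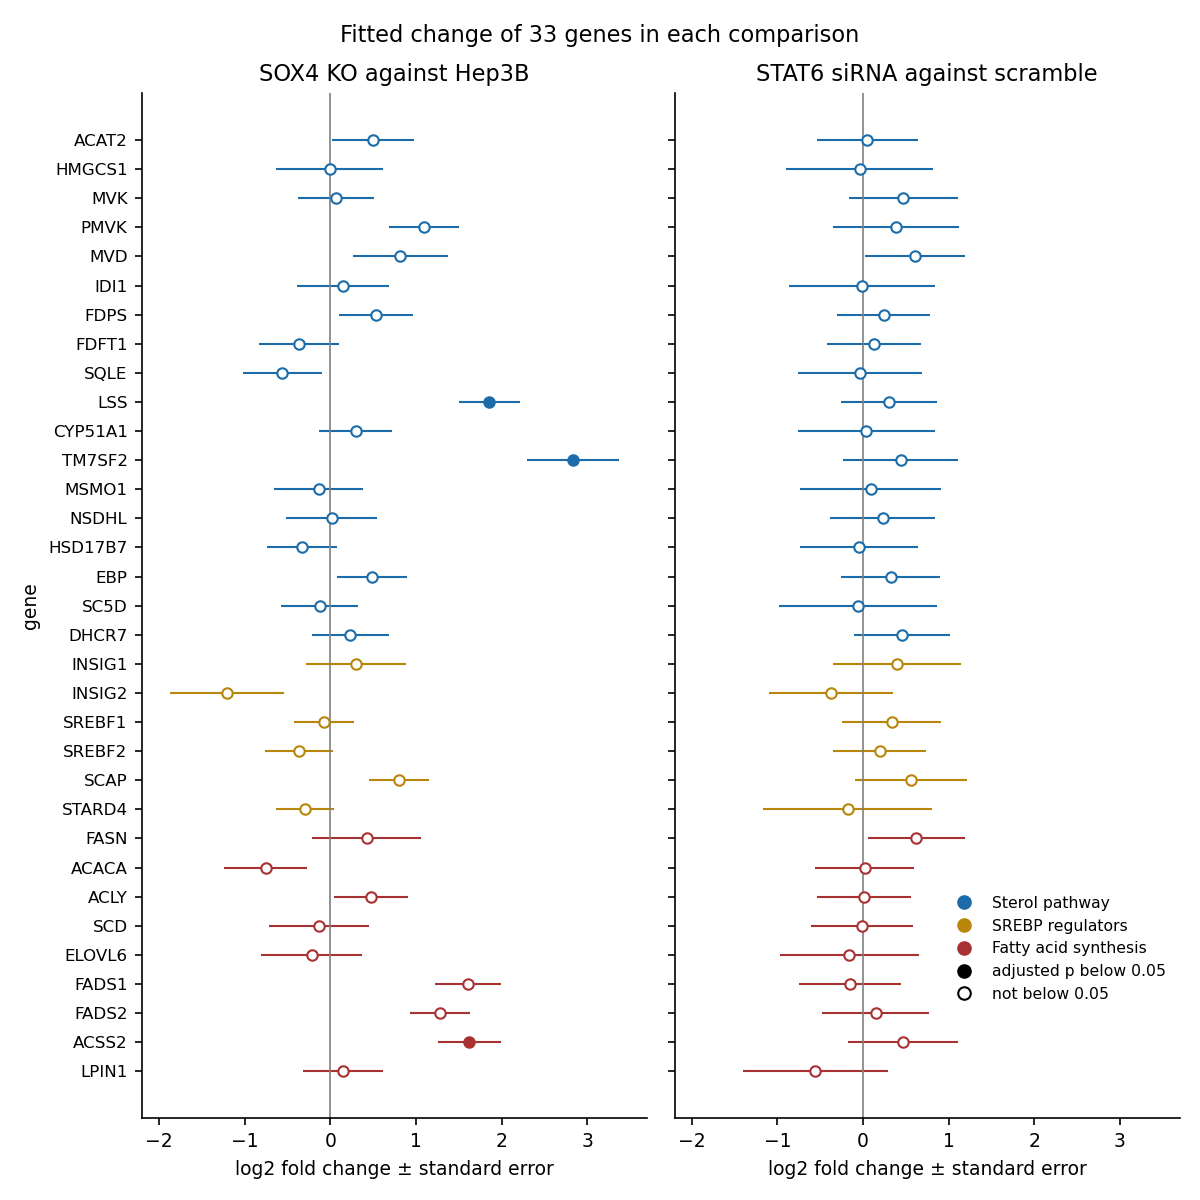
Fitted log2 fold change (points) with its SE (bars) of the 33 genes in both comparisons, filled where the adjusted p-value was below 0.05. LSS, TM7SF2 and ACSS2 are filled in the knockout comparison, and no gene is filled after STAT6 siRNA.

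Of the 6 regulators 0 were called in the knockout comparison by edgeR or DESeq2, and 0 had an edgeR p-value below 0.05 before adjustment. Over all genes edgeR called 5.89% and DESeq2 15.0%, and 26.0% had an edgeR p-value below 0.05 before adjustment. The groups did not overlap in 3 of 6, against 58.0% of all genes, SCAP being higher and SREBF2 and STARD4 lower. SCAP had 64.0 and 46.5 CPM in Hep3B and 103 and 88.4 CPM in libraries labelled as SOX4 knockout, a log2 fold change of 0.80 (SE 0.35, edgeR adjusted p = 0.198) that was 0.21 with GC and length offsets. SREBF2 had 573 and 721 CPM against 469.8 and 531 CPM, and STARD4, a cytosolic sterol carrier, 112 and 124 CPM against 109.7 and 82.4 CPM. SREBF1 had 189 and 196 CPM against 156 and 209 CPM, which overlapped. One of its 2 transcripts, looked at after the values were seen, held 9.56% and 11.7% of its counts in Hep3B and 28.3% and 23.4% in libraries labelled as SOX4 knockout.

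INSIG1 and INSIG2 differed in opposite directions between the Hep3B libraries. INSIG1, itself a target of SREBP, had 94.6 and 336 CPM in Hep3B and 209.6 and 319.9 CPM in libraries labelled as SOX4 knockout. INSIG2 had 233 and 51.3 CPM in Hep3B and 78.6 and 44.4 CPM in libraries labelled as SOX4 knockout. Its log2 fold change was -1.21 (SE 0.66, edgeR adjusted p = 0.29). Hep3B library 1 decided that value, which was 0.20 without it, and -1.93 with an adjusted p-value of 0.0164 without Hep3B library 2.

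Of the 9 fatty acid genes 4 were higher without overlap, a share of 44.4% against 30.6% of all genes, 0 were lower without overlap against 27.4%, and the values of 5 overlapped. Besides ACSS2, FADS1 and FADS2, the groups did not overlap in ACLY, the citrate lyase that supplies cytosolic acetyl-CoA, with 588 and 644 CPM against 666 and 1045 CPM. FASN had 939 and 2678 CPM in Hep3B and 1749.9 and 3103 CPM in libraries labelled as SOX4 knockout. SCD had 3201 and 5688 CPM against 3413 and 4677 CPM. ACACA, the carboxylase that makes malonyl-CoA, had 141 and 342 CPM against 117 and 169 CPM. ELOVL6 had 13.5 and 46.1 CPM against 18.4 and 32.8 CPM, and LPIN1, a phosphatidate phosphatase, 28.2 and 69.6 CPM against 51.4 and 56.9 CPM. In FASN, ACACA, ELOVL6 and LPIN1 the Hep3B libraries were more than 2-fold apart, against 24.8% of all genes. In no gene of this group were the knockout libraries that far apart, against 14.6% of all genes.

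Related genes were counted from 4 lists, by edgeR's quasi-likelihood test (4.50% of all genes higher, 1.39% lower) and by DESeq2 (9.57% higher, 5.41% lower). Before adjustment 26.0% of all genes had an edgeR p-value below 0.05. Of 9 genes of SREBP processing and degradation in the endoplasmic reticulum 0 were called by either, 2 had an edgeR p-value below 0.05 before adjustment, and MBTPS2, the site-2 protease, had the largest fold change, with 12.7 and 19.8 CPM in Hep3B and 39.6 and 34.5 CPM in libraries labelled as SOX4 knockout (log2 fold change 1.19, SE 0.39, edgeR adjusted p = 0.109). Of 15 genes of sterol uptake, storage and efflux edgeR called 1 higher and 0 lower, and DESeq2 2 higher and 1 lower. An edgeR p-value below 0.05 before adjustment was found in 4 of the 15. The gene called by edgeR was LRP8, a receptor of the lipoprotein receptor family, with 8.06 and 18.3 CPM against 54.1 and 54.5 CPM (log2 fold change 2.04, SE 0.47, edgeR adjusted p = 0.0474). Of 24 further fatty acid and glycerolipid enzymes tested edgeR called 1 higher and 0 lower, and DESeq2 7 higher and 1 lower. An edgeR p-value below 0.05 before adjustment was found in 14 of the 24, against 26.0% of all genes. In this list 16 were higher without overlap (66.7%, against 30.6% of all genes) and 2 lower (8.3%, against 27.4%). The gene called by edgeR was SCD5, a second stearoyl-CoA desaturase, which was low, with 0.851 and 0.897 CPM in Hep3B and 9.43 and 12.8 CPM in libraries labelled as SOX4 knockout (log2 fold change 3.66, SE 0.56, edgeR adjusted p = 0.0208). Of 9 genes of the isoprenoid branch 0 were called by edgeR, 2 had a p-value below 0.05 before adjustment, 8 had a fold change below 0 (against 7144 of 14415 genes), and 5 were lower without overlap (55.6%, against 27.4% of all genes). NUS1, a subunit of the enzyme that makes dolichol precursors, had the largest fold change there, with 173 and 157 CPM against 77.5 and 80.5 CPM (log2 fold change -1.06, SE 0.33, edgeR adjusted p = 0.095), and DESeq2 called it (adjusted p = 0.0329). Named after their values were seen, VLDLR, a lipoprotein receptor, had 51.6 and 26.4 CPM against 9.73 and 11.7 CPM (log2 fold change -1.87, edgeR adjusted p = 0.0516), ELOVL2, an elongase, 131 and 87.3 CPM against 514 and 289 CPM (1.88, 0.0511), and ME1, the cytosolic malic enzyme, 48.3 and 298 CPM against 34.7 and 40.7 CPM (edgeR adjusted p = 0.116), and DESeq2 called all 3. Leaving out either knockout library, which ended most calls over all genes, also ended those of LRP8, at log2 fold changes of 2.06 and 1.99, and of SCD5, at 3.87 and 3.39. The call of LRP8 was also lost with GC and length offsets (1.75, adjusted p = 0.0759), in the fit of all 8 libraries (1.97, 0.0832) and with at least 10 counts in every library (2.07, 0.052). Its log2 fold change was 2.75 without Hep3B library 2 and 1.51 without Hep3B library 1. SCD5 kept its call under those 3 settings. The fit with these offsets and the replicate block called neither LRP8 (1.89, adjusted p = 0.105) nor SCD5 (3.55, 0.067).

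The second comparison asked which genes differ after STAT6 siRNA. Of the 33 genes 0 were called by edgeR's quasi-likelihood test and 0 by DESeq2, and 0 had a p-value below 0.05 before adjustment by edgeR. The background called was 0% of 13554 genes, with 0.103% before adjustment. STAT6, the silenced gene, was itself not called, so the lack of calls does not show a lack of change. With the replicate block 0 of the 33 were called, and 8 had an edgeR p-value below 0.05 before adjustment, against 1495 of 13554 genes. The groups did not overlap in 7 of the 33 genes, each higher, against 2.74% of all genes higher and 5.26% lower without overlap. They were MVK (61.0% GC), MVD (65.6%), FDFT1 (48.7%), LSS (59.7%), NSDHL (50.7%), FASN (65.3%) and ACSS2 (54.5%). GC content moved with the fold change in this comparison too. The median log2 fold change of all genes went from -0.235 below 40% GC to 0.336 at 60% or more. Of the markers of other cells, 4 of 6 fibroblast markers were listed in this table and 2 were tested. Both of these were also higher without overlap, PDGFRB with 7.07 and 4.84 CPM against 14.0 and 7.47 CPM. COL1A1, which was low, had 0.904 and 1.11 CPM against 1.62 and 1.32 CPM. The part of these markers in the differences was not tested.

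FASN had 1284 and 1210.3 CPM with scramble and 2401 and 1442 CPM with STAT6 siRNA. The scramble libraries were within 1.06-fold and the STAT6 siRNA libraries apart, library 1 being the higher. Its log2 fold change of 0.62 (SE 0.57, edgeR adjusted p = 1.00) was the largest of the 33 genes in this fit. It was 0.21 without STAT6 siRNA library 1, 0.94 without STAT6 siRNA library 2 and 0.27 with GC and length offsets, below that of ACSS2 with them (0.41). MVD had 92.3 and 70.0 CPM against 154 and 93.2 CPM, a log2 fold change of 0.61 (SE 0.58), which was 0.20 without STAT6 siRNA library 1, 0.92 without STAT6 siRNA library 2 and 0.30 with the offsets. ACSS2 had 24.9 and 23.51 CPM against 35.3 and 31.7 CPM (log2 fold change 0.47, SE 0.65), and MVK, the mevalonate kinase, 32.5 and 24.9 CPM against 43.9 and 35.8 CPM (log2 fold change 0.47, SE 0.64, and 0.29 to 0.74 when 1 library was left out). LSS had 95.1 and 82.6 CPM against 116 and 104 CPM. FDFT1, the squalene synthase, had 139.9 and 147 CPM against 150.3 and 162 CPM, and NSDHL, a sterol dehydrogenase, 41.5 and 37.9 CPM against 42.5 and 50.5 CPM. In this fit, which has no term for the library number, each of the SEs given was near to or above its fold change. INSIG1 had 16.1 and 39.1 CPM against 18.0 and 54.7 CPM, which overlapped (log2 fold change 0.40, SE 0.75). The fit with the replicate block and GC and length offsets called INSIG1 (edgeR adjusted p = 0.0338), and no other setting did. LPIN1 had the lowest log2 fold change, -0.56 (SE 0.85), from 5.77 and 15.2 CPM with scramble to 2.94 and 11.2 CPM, and it was 0.31 without scramble library 2 and 0.10 without STAT6 siRNA library 1.

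The libraries numbered 1 and 2 in the siRNA table differed more than the groups did in the genes of low GC content. HMGCS1, with 40.1% GC, had 85.4 and 458 CPM with scramble and 68.6 and 459.5 CPM with STAT6 siRNA. SC5D, a sterol desaturase with 38.5% GC, had 8.20 and 44.8 CPM against 7.13 and 43.8 CPM. STARD4, with 35.2% GC, had 3.56 and 17.9 CPM against 2.20 and 16.6 CPM, and IDI1, with 40.2% GC, had 15.8 and 68.1 CPM against 12.5 and 70.6 CPM. In each of these genes the library numbered 2 was more than 4-fold above that numbered 1 in both groups. Genes of high GC content went the other way, as in SCAP, with 62.3% GC, at 79.99 and 45.9 CPM with scramble and 136 and 49.0 CPM with STAT6 siRNA.

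The same was seen across all genes in this table. The median log2 difference of library 2 minus library 1 with scramble was 1.45 in genes below 40% GC and -0.75 in genes of 60% or more, and with STAT6 siRNA it was 1.46 and -1.11. The 4 genes of the 33 between 40% and 45% GC had medians of 2.04 and 2.39, against 1.00 and 1.25 for all genes of that class. In libraries labelled as SOX4 knockout the medians of all genes went the other way, from -0.45 below 40% to 0.12 at 60% or more. In Hep3B the medians of all genes were 0.08 below 40% and -0.13 at 60% or more, whereas those of the 33 genes were above 0 in each class of GC. The part of GC content in the results on single genes was not tested beyond the offsets given above.

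**Figure D5:**
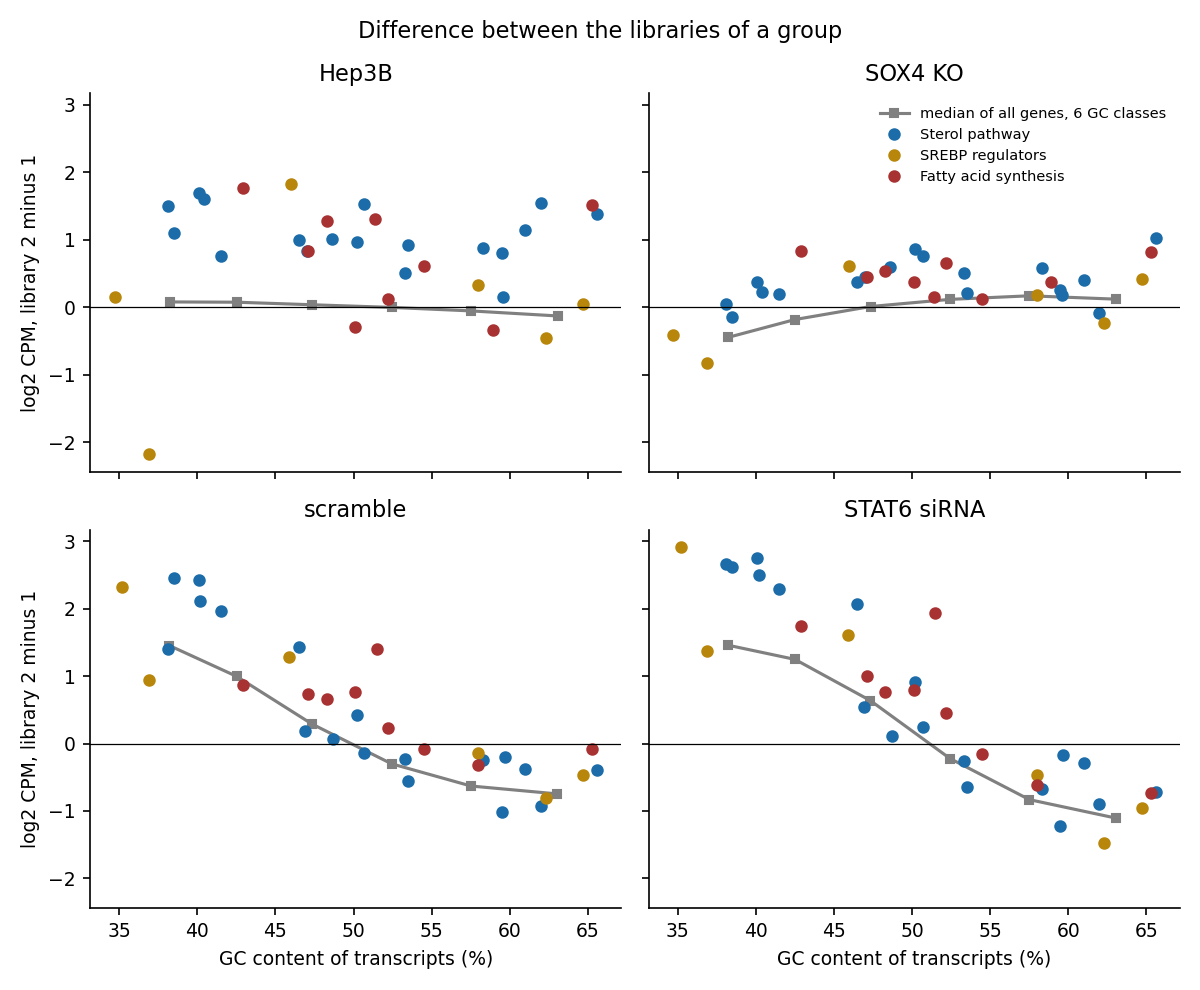
Points give the log2 CPM of library 2 minus library 1 of each of the 33 genes against the GC content of its transcripts, in each condition, and the grey line joins the medians of all genes in 6 GC classes, drawn at the median GC of the class. In Hep3B most points lie above the line whatever the GC content, and in both siRNA groups points and line fall from low to high GC.

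The third comparison tested whether the change in libraries labelled as SOX4 knockout differs from the change after STAT6 siRNA, in one fit of all 8 libraries. Of the 33 genes 0 were called by edgeR's quasi-likelihood test, against 0.0769% of 14313 genes, and 0 by DESeq2. Before adjustment 3 of 33 had a p-value below 0.05, against 6.56% of all genes. TM7SF2 had a difference of the log2 fold changes of 2.26 (SE 0.87, edgeR adjusted p = 0.563), FADS1 of 1.66 (SE 0.71, edgeR adjusted p = 0.677) and LSS of 1.43 (SE 0.66, edgeR adjusted p = 0.751). FADS2 had 1.02 (SE 0.71) and ACSS2 1.04 (SE 0.69), each higher in the knockout comparison. The 2 comparisons share no library, and they come from separate tables, so a difference between the experiments cannot be told apart from a difference between the perturbations.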

How the data were processed

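RNA was extracted with TRIzol and sequenced from stranded mRNA libraries. The authors deposited expected counts (read counts estimated for each RefSeq transcript on hg38) without normalization. The submitters' processing notes name STAR and Partek, with versions and strand setting not given in the sources used here. There were 33253 transcripts in the knockout table and 30650 in that of the siRNA, each with a sum of at least 10. Counts were summed per gene and rounded, and 19 names turned into dates were separated by chromosome. The design had assumed counts, and the same test was kept. Each table was fitted in R 4.3.3 by the quasi-likelihood test of edgeR 4.0.16 with filterByExpr, TMM and glmQLFit defaults, with Benjamini-Hochberg adjustment. The difference of the effects came from a fit of 8 libraries. Length and GC content came from GENCODE 29 transcripts. The test was checked on simulated counts. The pass mark of that check applied only at a spread set below that of the data, so it does not show the power at theirs. Members and lists were chosen with earlier results of these data known. All 33 members are named, and of the related lists the genes called and the largest fold change with a mean of at least 100 counts. C12orf49 in the tables was read as SPRING1. Alternatives were other scalings, DESeq2 1.42.0, other filters, the fit of 8 libraries, the replicate block, GC and length offsets (mgcv 1.9.3) and leaving out each library.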

Additional observations from a re-analysis of the deposited data

How the results depend on the processing

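What depth limits was not tested by thinning. Of the 33 genes, 3 were called in the knockout comparison in the main fit, 5 with DESeq2, 1 in the fit of all 8 libraries, 0 with GC and length offsets and 0 with the replicate block and these offsets. Over all 14415 genes tested, 632 were called with the offsets and 48 with the block and offsets. Leaving out each library gave 0 to 4, with 0 when either knockout library was left out, where the lone library is assumed to vary like the other group. After STAT6 siRNA the count was 0 except for 1 (INSIG1, adjusted p = 0.0338) with the replicate block and offsets, with a range of 0 to 0 on leaving out 1 library. The difference of the effects gave 0 under each alternative, with a range of 0 to 0 when each library was left out. The log2 fold change of INSIG2 turned to 0.20 without Hep3B replicate 1 and was -1.93 without Hep3B replicate 2, and that of LPIN1 after STAT6 siRNA to 0.31 without scramble replicate 2 and to 0.10 without STAT6 siRNA replicate 1, and was -1.84 without STAT6 siRNA replicate 2. The causes were not tested beyond what the removal of a library shows. Of the 33 fold changes, 20 changed sign under at least 1 alternative in the knockout comparison, 24 after STAT6 siRNA and 26 in the difference, mostly small ones.

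Over all genes, the knockout comparison called 849 genes, 2160 with DESeq2, 438 in the fit of 8 libraries, 518 with at least 10 counts in every library, 48 with the replicate block and offsets, and 21 to 2298 without 1 library. The share of higher calls was 76.3%, against 63.9% with DESeq2 and 64.4% with offsets. The offsets moved the median log2 fold change of all genes to -0.15. Leaving out STAT6 siRNA replicate 2 moved the siRNA median to -0.23. For the difference, 11 genes were called, with 166 by DESeq2, 5 with upper-quartile factors, 1 with at least 10 counts, 97 with the replicate block, 67 with offsets, 36 with both and 0 to 127 without 1 library.

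The labels do not say that equal numbers mark a shared culture, and with 2 numbers no pairing was assumed. Deviations of same-numbered libraries had a correlation of -0.085 over 14415 genes in the knockout table and 0.873 over 13554 genes in the siRNA table. With the replicate block alone 3 of the 33 genes were called in the knockout comparison and 0 after STAT6 siRNA. Before adjustment 8 of the 33 then had a p-value below 0.05 after STAT6 siRNA, against 1495 of 13554 genes, and the SE fell to 0.25 for FASN, 0.21 for MVD and 0.205 for ACSS2 and MVK. The block called 62 of all genes after STAT6 siRNA, or 354 with offsets.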
